A study of Mus musculus with 6 samples.

Results

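The ear of the mouse is stiffened by a thin plate of elastic cartilage, and a punch through the ear carries this plate together with the skin. The genes described here are 10 genes of cartilage, chosen by gene symbol: Acan, Hapln1, Matn1, Matn3, Matn4, Chad, Comp, Cytl1, Sox5 and Sox6. Of these 10, 9 had a row among the 15667 genes of the table. Matn1, which encodes matrilin-1, had no row and was not analysed here. The other 9 genes averaged 1 CPM or more (CPM is the count of a gene relative to the total of its library) and all were tested, although Matn3 was below 1 CPM in 1 library.

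RNA-seq was performed on bitten ear skin of female mice, 7 to 8 weeks old, bred from heterozygous pairs of a mixed strain background. The groups were 3 mice with an intact adiponectin gene (Adipo+/+, WT) and 3 littermates homozygous for the germline null allele tm1Chan of Adipoq (Adipo-/-, KO), which lack the hormone in every tissue. Each mouse carried 10 Ixodes scapularis ticks for 48 h, and a 3.5 mm punch was taken from the ear where they fed, so that all 6 libraries are of bitten skin. Unbitten ears were not analysed here, and no label states how much cartilage a punch held.

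Cartilage is made by chondrocytes, which surround themselves with a matrix of type II, IX and XI collagen fibrils and a gel of aggrecan bound to hyaluronan. Link protein fixes aggrecan to hyaluronan, while matrilins, cartilage oligomeric matrix protein and chondroadherin connect fibrils, proteoglycans and cells. The transcription factors SOX5 and SOX6 act with SOX9 to switch on these matrix genes. Adiponectin is a hormone of fat cells, and fat cells lie beside the cartilage plate in the ear.

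The libraries had an implied depth of 3403773 (KO replicate 3) to 6591320 reads (KO replicate 1), worked out from the CPM of a single read. A count of 3 reads was worth 0.455 to 0.881 CPM. The ribosomal RNA gene Rn45s took 7.99% to 11.4% of the CPM. The targeted gene Adipoq had 126, 313 and 301 reads in the libraries labelled WT, whereas those labelled KO had 0, 2 and 0, so that it matched all 6 labels. The cartilage label was checked with 9 defining genes of chondrocytes (Col2a1, Col9a1, Col9a2, Col9a3, Col11a2, Cnmd, Ucma, Snorc and Sox9). All 9 had reads in every library, and their summed level was 85.3 to 210.0 CPM. Sox9, which hair follicles also use, made up much of this, and without it the remaining 8 summed to 33.7 to 129.8 CPM. Some of the 8 were read only a few times. Snorc had 3 to 7 reads per library, and in WT replicate 1 Col9a3 had 3 and Col9a2 had 5 reads. In bulk tissue, fewer chondrocytes in a punch and less RNA per chondrocyte cannot be told apart.

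The promoters of Chad, Acan and Cytl1 are shown because these 3 genes were among the 4 most abundant members per length, and because the ratios of Acan to the other two, given further on, are among those that separate KO from WT libraries. Each is the 250 bases before the gene start, read 5′ to 3′ on the plus strand of GRCm38.p6 (RefSeq), and capitals mark the letters TATAAA. The windows lie at chr11:94564797-94565046 for Chad, chr7:79052976-79053225 for Acan and chr5:37735269-37735518 for Cytl1.
Chad: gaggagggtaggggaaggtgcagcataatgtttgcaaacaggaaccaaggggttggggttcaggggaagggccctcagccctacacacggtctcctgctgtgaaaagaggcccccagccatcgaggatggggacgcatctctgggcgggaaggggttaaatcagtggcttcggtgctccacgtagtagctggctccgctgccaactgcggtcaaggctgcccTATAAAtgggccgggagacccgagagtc
Acan: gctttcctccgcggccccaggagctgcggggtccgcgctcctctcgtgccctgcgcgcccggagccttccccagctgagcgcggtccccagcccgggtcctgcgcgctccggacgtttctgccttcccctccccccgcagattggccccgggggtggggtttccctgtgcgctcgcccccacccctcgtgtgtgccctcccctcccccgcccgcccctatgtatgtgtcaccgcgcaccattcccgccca
Cytl1: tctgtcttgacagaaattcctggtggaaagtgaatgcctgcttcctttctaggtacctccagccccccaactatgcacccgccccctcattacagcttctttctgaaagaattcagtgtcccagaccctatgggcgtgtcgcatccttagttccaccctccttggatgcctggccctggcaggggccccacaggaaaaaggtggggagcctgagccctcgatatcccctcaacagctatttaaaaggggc

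In the Chad window TATAAA began 28 bases before the gene start, while the Acan and Cytl1 windows held no such letters. Of 32536 promoter windows of all genes, 12.3% held TATAAA on either strand. The Acan window had a GC content of 74.4%, against 60.4% for Chad, 54.8% for Cytl1 and a median of 52.4% over all windows. Promoter windows were found for 9 of the 10 genes (15 windows, 6 of them of Sox6), with none for Comp. The letters ACAAAG or AACAAT, which SOX factors can bind, were searched on both strands. They were present in 24.0% of all windows and in 5 windows of Sox6, and in no window of the other 8 genes.

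Aggrecan (Acan, chromosome 7, 79053226 to 79115099, plus strand) is the large proteoglycan that holds water in cartilage. WT replicates 1, 2 and 3 had 55.2, 70.2 and 93.5 CPM of Acan (72.9 ± 19.3, SD, n = 3), and KO replicates 1, 2 and 3 had 76.8, 69.5 and 128.4 CPM (91.6 ± 32.1, SD, n = 3). All levels below are given in this order of replicates. KO replicate 3 was the highest and WT replicate 1 the lowest, and the groups overlapped. On the log2(CPM + 0.5) scale Acan differed by 0.30 between KO and WT (SE 0.27, adjusted p = 0.998, limma), with a 95% interval of -0.31 to 0.92.

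Link protein (Hapln1, chromosome 13, 89540636 to 89611832, plus strand) ties aggrecan to hyaluronan. It was at 5.57, 11.2 and 11.4 CPM in the WT replicates and at 10.6, 7.85 and 24.4 CPM in the KO replicates. The same 2 libraries were at the ends of its range, with WT replicate 1 at 23 reads and KO replicate 3 at 83 reads. Hapln1 had a log2 fold change of 0.49 (SE 0.44, adjusted p = 0.998), which was 0.03 without KO replicate 3.

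The matrilins are adaptor proteins that link collagen fibrils to proteoglycans. Matn3 (chromosome 12, 8947929 to 8972028, plus strand) was at 0.968, 1.83 and 1.98 CPM in WT and at 2.88, 1.68 and 5.29 CPM in KO, from 4 to 19 reads per library. KO replicates 1 and 3 were above all WT libraries, and KO replicate 2 lay between them. Its log2 fold change of 0.78 (SE 0.45, adjusted p = 0.998) was the largest of the 9 genes, with a 95% interval of -0.27 to 1.82, and it was 0.41 without KO replicate 3. Matn4 (chromosome 2, 164389393 to 164405160, minus strand), a matrilin that is also found outside cartilage, was at 2.42, 3.46 and 3.63 CPM in WT and at 3.03, 3.92 and 4.70 CPM in KO. The groups overlapped, and Matn4 had a log2 fold change of 0.26 (SE 0.30, adjusted p = 0.998). Matn4 shares 149 exon bases with Rbpjl, a gene on the opposite strand that was not in the table.

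Chondroadherin (Chad, chromosome 11, 94565047 to 94569127, plus strand) binds collagen and chondrocyte integrins. The WT libraries held 98.3, 173.3 and 190.3 CPM of Chad (153.9 ± 49.0, SD, n = 3), the KO libraries 101.8, 112.1 and 227.7 CPM (147.2 ± 69.9, SD, n = 3). Apart from KO replicate 3, the KO libraries lay with WT replicate 1 at the low end. The log2 fold change was -0.11 (SE 0.35, adjusted p = 0.998). It was -0.47 without KO replicate 3 and turned to 0.01, 0.07, 0.11 and 0.04 without WT replicate 2, WT replicate 3, KO replicate 1 and KO replicate 2.

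Cartilage oligomeric matrix protein (Comp, chromosome 8, 70373548 to 70382066, plus strand) assists collagen fibril assembly and is also abundant in tendon. It was at 41.1, 80.1 and 58.5 CPM in WT and at 50.1, 57.7 and 97.8 CPM in KO. The groups overlapped over most of their range. Comp had a log2 fold change of 0.18 (SE 0.30, adjusted p = 0.998). Its sign turned on leaving out WT replicate 1 (-0.06) or KO replicate 3 (-0.10).

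Cytl1 (chromosome 5, 37735519 to 37739820, plus strand) encodes a small secreted protein that is made by chondrocytes. The WT libraries held 137.0, 206.9 and 187.1 CPM of Cytl1 (177.0 ± 36.0, SD, n = 3), the KO libraries 113.5, 105.4 and 235.3 CPM (151.4 ± 72.8, SD, n = 3). KO replicates 1 and 2 were below all WT libraries, whereas KO replicate 3 was above them all. The log2 fold change was -0.30 (SE 0.30, adjusted p = 0.998), with a 95% interval of -1.01 to 0.40. Without KO replicate 3 it was -0.67 (SE 0.19, 95% interval -1.13 to -0.21). Cytl1 was then the only member called at an unadjusted threshold of 0.05, with an adjusted p of 1.0 in limma. Of all genes tested without that library, 2.11% were lower in KO at this threshold. Over its 17 alternatives the adjusted p of Cytl1 was 0.954 to 1.0.

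SOX5 and SOX6 are transcription factors that many tissues besides cartilage use. Sox5 (chromosome 6, 143828425 to 144209568, minus strand) was at 5.81, 6.92 and 17.5 CPM in WT and at 5.92, 4.76 and 9.70 CPM in KO. WT replicate 3 was the highest and KO replicate 3 the next, and the groups overlapped. Sox5 had a log2 fold change of -0.43 (SE 0.44, adjusted p = 0.998), which was 0.04 without WT replicate 3. In that library the summed level of 5 melanocyte genes was 88.0 CPM, against 3.05 to 6.52 CPM in the other 5, and the summed level of 10 hair follicle genes was 22404 CPM, against 8.47 to 8927 CPM. The part of these cells in the Sox5 level was not tested. The antisense gene Sox5os1, which was not in the table, shares 1330 exon bases with Sox5.

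Sox6 (chromosome 7, 115470872 to 116038744, minus strand) was at 47.0, 58.8 and 51.4 CPM in WT and at 50.8, 48.2 and 60.2 CPM in KO. It was the steadiest of the 9 genes, with a highest level 1.28 times the lowest. Its log2 fold change was 0.02 (SE 0.14, adjusted p = 0.998), with a 95% interval of -0.30 to 0.34. Leaving out WT replicate 1 gave -0.06, and leaving out KO replicate 3 gave -0.08.

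**Figure D1:**
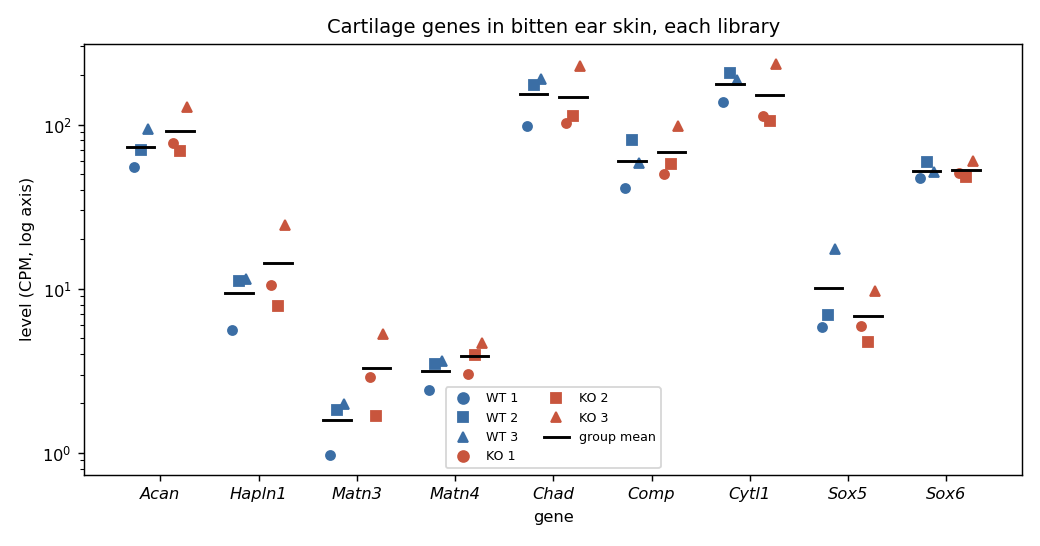
Level in CPM (log axis) of the 9 cartilage genes in the 3 WT (blue) and 3 KO (red) libraries, with marker shape giving the replicate number and black lines the group means. KO replicate 3 (red triangle) is the highest library for every gene but Sox5, and the groups overlap for all 9.

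The levels were next compared among genes per kilobase of exon (GENCODE M21, all exons of a gene merged), since a longer transcript yields more reads. Cytl1 led with a mean of 155.5 ± 50.4 CPM per kb, followed by Chad with 89.6 ± 32.2 and Comp with 21.7 ± 7.06 CPM per kb (SD, n = 6 libraries for each). Acan, with 7.47 kb of exon, was at 11.0 ± 3.45 CPM per kb, and Sox6 at 3.56 ± 0.372 CPM per kb. Hapln1, Matn3, Matn4 and Sox5 followed at 2.0, 0.809, 0.682 and 0.586 CPM per kb. The ranges over libraries did not overlap between Chad and Comp, or between Acan and Sox6. The other neighbours in this order had overlapping ranges. Compared within each library, Cytl1 was above Chad, Comp above Acan and Hapln1 above Matn3 in 6 of 6 libraries, and Sox6 was above Hapln1 and Matn4 above Sox5 in 5 of 6. Matn3, with the higher mean, was above Matn4 in 2 of 6, so that these matrilins have no stable order.

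KO and WT libraries were then compared for all members together. With limma over 14306 genes, 0 of the 9 members passed an adjusted p below 0.05, against 0.014% of all genes tested. At an unadjusted p below 0.05 there were also 0 of 9, against 2.88% of all genes, and there were 0 as well with limma voom on recovered reads and each other alternative over all 6 libraries. Leaving out KO replicate 3 gave 1 member (Cytl1, lower). Leaving out KO replicate 2 gave 1 (Matn3, higher, log2 fold change 1.12, unadjusted p = 0.0443 and adjusted p = 0.998 in limma). Of all genes tested in these 2 fits, 302 were lower without KO replicate 3 and 204 higher without KO replicate 2 at this unadjusted threshold. In 0 of 9 members did all KO libraries lie on the same side of all WT libraries, which 7.84% of all genes did. The log2 fold change was positive in 6 members and negative in 3, with a median of 0.18 (median of all genes -0.03). Without KO replicate 3 it was positive in 4 and negative in 5, with a median of -0.08. That library is the highest of the KO group for each member, so leaving it out necessarily lowers each log2 fold change. Summed over the members, WT libraries had 540.4 ± 127.4 CPM and KO libraries 540.0 ± 219.6 CPM (SD, n = 3 each), a ratio of 0.999. The ratio was 0.765 without KO replicate 3 and 0.88 to 1.118 on leaving out any other library. Abundant genes weigh most in these sums. Cytl1 (means of 177.0 CPM in WT and 151.4 in KO) and Chad (153.9 and 147.2) made up most of them. Acan (72.9 and 91.6) and Comp (59.9 and 68.5) had higher means in KO. The widths of the intervals show the limit of 3 against 3 libraries: for Hapln1 the interval ran from -0.54 to 1.51 on the log2 scale, and for Matn3 from -0.27 to 1.82.

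**Figure D2:**
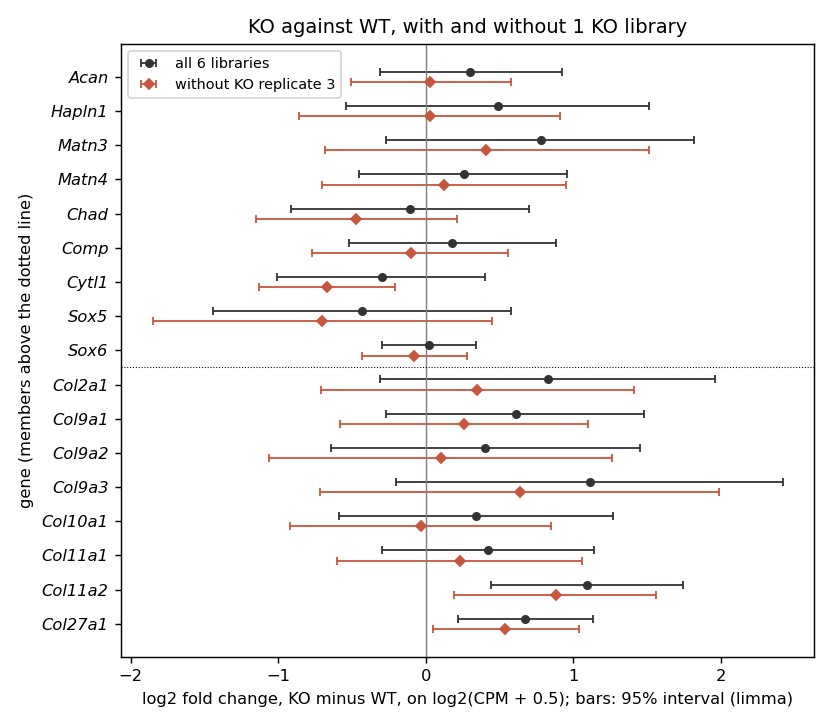
Log2 fold change (KO minus WT, x axis) with 95% limma intervals for the 9 members and 8 cartilage collagens, from all 6 libraries (black circles) and without KO replicate 3 (red diamonds). All 9 member intervals include 0 with all 6 libraries, and Col11a2 and Col27a1 stay to the right of 0 in both. Leaving out KO replicate 3, the highest KO library for each gene shown, necessarily moves each point to the left.

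The members differed more between libraries of a group than between the groups. The highest value was in KO replicate 3 for 8 of the 9 members, against 13.6% of all genes tested, and the lowest was in WT replicate 1 for 7 of 9, against 20.4% of all genes. KO replicate 3 was also the library with the lowest implied depth. The median ratio of the highest to the lowest library was 2.33 for the members and 1.63 for all genes. Within the KO group, replicate 3 exceeded the mean of replicates 1 and 2 by 2.64 times for Hapln1, 2.32 times for Matn3, 2.15 times for Cytl1, 2.13 times for Chad, 1.82 times for Comp, 1.76 times for Acan and 1.35 times for Matn4. For Sox6 this ratio was 1.22. Within WT, the mean of replicates 2 and 3 exceeded replicate 1 by 2.03 times for Hapln1 and by 1.85 times for Chad.

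**Figure D3:**
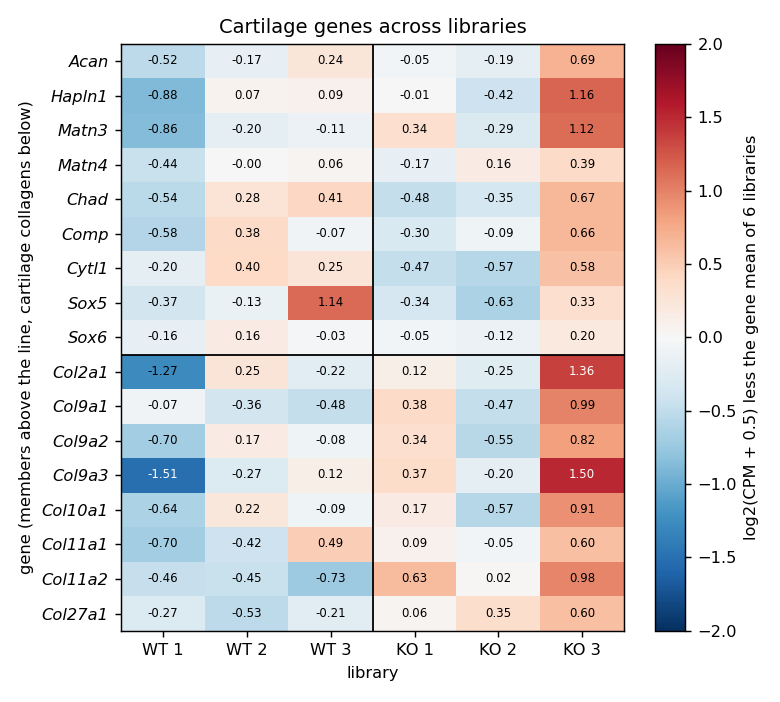
Log2(CPM + 0.5) less the mean of the 6 libraries (colour and printed value) for the 9 members and 8 cartilage collagens, in WT (left) and KO (right) libraries. The KO replicate 3 column is positive for all 17 genes and reaches 1.5 for Col9a3, and the WT replicate 1 column is negative for all 17.

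Other tissue of the punch was compared with the members by summed levels. The members summed to 393.3, 612.7 and 615.3 CPM in WT replicates 1, 2 and 3, and to 415.4, 411.1 and 793.5 CPM in the KO replicates. KO replicate 3 was 1.62 times the mean of the other 5 libraries for the members and 2.06 times for the cartilage collagens. The same ratio was 1.74 for 2 bone genes, 1.49 for 6 tendon genes, 1.37 for 4 keratinocyte genes, 1.32 for 7 fibroblast genes and 1.28 for 12 skeletal muscle genes. It was below 1 for Schwann cell (0.888), adipocyte (0.599), neutrophil (0.378) and hair follicle genes (0.138). Within the tendon list Fmod, also a gene of cartilage, gave 343.2 of the 466.3 CPM in KO replicate 3. Mkx, Thbs4 and Kera were highest in that library too, whereas Tnmd and Scx were highest in WT libraries. Of the fibroblast genes, Col1a1, Col1a2 and Lum were highest in KO replicate 3, and Col3a1, Dpt, Dcn and Pdgfra were not. Of the keratinocyte genes, Krt1 and Krt10 were highest in KO replicate 3, Krt5 in KO replicate 1 and Krt14 in WT replicate 1. The skeletal muscle genes summed to 5739, 6583 and 7473 CPM in WT and to 3509, 4279 and 7080 CPM in KO. Their highest library was thus WT replicate 3. The bone genes were Ibsp and Alpl at a sum of 1.67 to 7.34 CPM, while its defining genes Bglap, Sp7 and Dmp1 had no row. WT replicate 1, the lowest library for the members, had the highest sum of 5 neutrophil genes, with 500.1 CPM against 15 to 167.2 CPM in the other 5. The share of these tissues in the member levels was not tested.

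**Figure D4:**
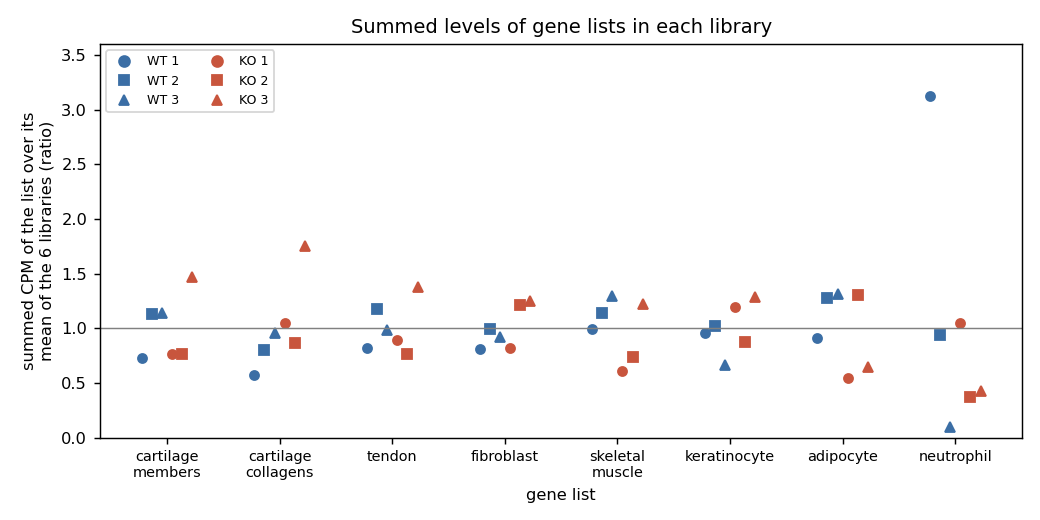
Summed CPM of each gene list in a library divided by its mean over the 6 libraries (y axis, ratio), for WT (blue) and KO (red) libraries with marker shape giving the replicate number. KO replicate 3 is highest for the cartilage members, cartilage collagens, tendon, fibroblast and keratinocyte lists, and WT replicate 1 stands apart for neutrophil genes.

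Genes with the pattern most like that of the 7 matrix members (all but Sox5 and Sox6) were listed by the root mean square difference of centred log2 values over the 6 libraries, among 11679 other genes averaging 5 CPM or more. The nearest were Ankmy2 (difference 0.093), Ldb2 (0.102), Fmod (0.113), Smarca5-ps (0.118) and Zfp354c (0.119). Fmod, which encodes the collagen-binding proteoglycan fibromodulin of tendon and cartilage, was at 165.3, 275.0 and 237.7 CPM in WT and at 209.7, 182.4 and 343.2 CPM in KO. Of the other cartilage genes, Cilp2 (cartilage intermediate layer protein 2) was at rank 15, Susd5 at rank 18, Timp3, an inhibitor of matrix-degrading proteases, at rank 46 and Clec3a, a lectin of cartilage, at rank 57, the 4 nearest of the lists. Other cartilage genes were further off, with the collagen Col10a1 at rank 86, Cnmd at rank 276 and Ucma at rank 411. The collagens Col2a1, Col9a1 and Col11a2 ranked beyond these. The measure counts the size of the differences between libraries as well as their order. Col2a1 had the same lowest and highest libraries as the member mean but a wider swing. Its centred values were -1.27 in WT replicate 1 and 1.36 in KO replicate 3, against -0.57 and 0.75 for the member mean.

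Collagens of cartilage shared the high library of the members and, for some, the low library. All 8 had the highest value in KO replicate 3, while 5 of 8 had the lowest in WT replicate 1. The log2 fold change was positive for 8 of 8 (43.3% of all genes), with a median of 0.64. Without KO replicate 3 it was positive for 7 of 8, with Col10a1 at -0.03, and the median was 0.31. None passed the adjusted threshold. At an unadjusted p below 0.05 in limma there were 2 of 8, against 2.88% of all genes. In 2 of 8 the KO and WT libraries did not overlap, against 7.84% of all genes. Col11a2, a chain of the type XI collagen that nucleates fibrils, was at 6.29, 6.31 and 5.11 CPM in WT and at 14, 8.97 and 17.9 CPM in KO. All 3 KO libraries were above all 3 WT libraries, with a log2 fold change of 1.09 (SE 0.28, unadjusted p = 0.00478 and adjusted p = 0.998 in limma). Col27a1, a fibrillar collagen of cartilage, was at 14.3, 11.8 and 14.8 CPM in WT and at 18.1, 22.1 and 26.4 CPM in KO. Its groups did not overlap either, with a log2 fold change of 0.67 (SE 0.20, unadjusted p = 0.00898 and adjusted p = 0.998 in limma).

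Col2a1, the main collagen of cartilage, was at 8.71, 25.8 and 18.6 CPM in WT and at 23.7, 18.2 and 56.7 CPM in KO. The groups overlapped, and the log2 fold change of 0.83 (SE 0.49, adjusted p = 0.998) was 0.35 without KO replicate 3. Col9a1, a chain of the collagen on the fibril surface, was at 6.05, 4.88 and 4.45 CPM in WT and at 8.5, 4.48 and 13.2 CPM in KO, and its groups overlapped (log2 fold change 0.61, SE 0.38, adjusted p = 0.998).

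The other cartilage genes had no common direction. Of 15 listed secreted and matrix genes, 13 had a row and 10 were tested, and 7 of them had a positive and 3 a negative log2 fold change (median 0.16). Among them were Cnmd, the chondrocyte protein chondromodulin (0.56, SE 0.36, adjusted p = 0.998), and Ucma, a protein of the cartilage matrix (-0.24, SE 0.43, adjusted p = 0.998). Of 8 tested regulators, 2 were positive and 6 negative (median -0.17). Sox9, the master regulator of chondrocytes, was at 51.6, 64.1 and 156.9 CPM in WT and at 58.3, 113.2 and 80.2 CPM in KO (log2 fold change 0.01, SE 0.41, adjusted p = 0.999). Sox9 was highest in WT replicate 3, the library with the highest sum of hair follicle genes. The part of hair follicles in the Sox9 level was not tested.

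Of 10 genes for the synthesis of chondroitin sulfate, the sugar chain of aggrecan, 5 were positive and 5 negative (median 0.01). The sulfate transporter Slc26a2 was at 67.3, 83.8 and 86.6 CPM in WT and at 106.3, 90.5 and 100.2 CPM in KO, and its groups did not overlap (log2 fold change 0.33, SE 0.13, unadjusted p = 0.0389 and adjusted p = 0.998 in limma). Its unadjusted p was not below 0.05 in 6 of 17 alternatives: without the trend, with the replicate block, and on leaving out 1 library, which was WT replicate 1, WT replicate 2, or else the first or the third of the KO replicates. The adjusted p was 0.894 to 1.0 over the 17. Of 9 genes of aggrecan breakdown, which include the inhibitor Timp3, 4 were positive and 5 negative (median -0.05). Of these, 0 reached an unadjusted p below 0.05 in limma. That list holds Mmp13, a collagenase that is in the study's own listing of differently expressed genes from these libraries. It was at 18.4, 31.1 and 4.78 CPM in WT and at 7.89, 4.76 and 3.23 CPM in KO. Its log2 fold change was -1.42 (SE 0.63, unadjusted p = 0.0543 and adjusted p = 0.998 in limma). Of 10 elastic fibre genes, whose products give ear cartilage its flexibility, 7 were positive and 3 negative (median 0.04). Elastin itself (Eln) was at 89.6, 79.7 and 107.8 CPM in WT and at 100.3, 116.9 and 148.1 CPM in KO, with overlapping groups. Of the 47 genes tested in these lists, collagens left out, 0 had an adjusted p below 0.05 in limma (0.014% of all genes). At an unadjusted p below 0.05 there was 1, Slc26a2, or 2.13% of the 47 against 2.88% of all genes. The 2 collagens at this threshold, given above, are not in this count.

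As the members shared their highest and lowest libraries, ratios between members within a library were examined, a step chosen after the values had been seen. Such a ratio does not depend on the scaling of the library. Of the 21 pairs of the 7 matrix members, 9 had ratios that did not overlap between KO and WT, against 8.17% of all pairs of tested genes. Pairs share genes, so these 9 are not independent, and no test was made of them. The matrix members were all highest in the same library, and a ratio cancels variation that both genes share. The pairs of all tested genes were not chosen for such sharing. The share of 8.17% is therefore not a matched background, and no enrichment can be read from it. Cytl1 was part of 5 of the 9 and Chad of 3, in each case with less Cytl1 or Chad relative to the partner in KO.

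The ratio of Acan to Cytl1 was 0.403, 0.339 and 0.50 in WT and 0.676, 0.660 and 0.546 in KO. All 3 KO libraries were above all 3 WT libraries, KO replicate 3 included. The ratio of Hapln1 to Cytl1 was 0.0406, 0.0541 and 0.0608 in WT and 0.0936, 0.0745 and 0.104 in KO. That of Comp to Cytl1 was 0.300, 0.387 and 0.313 in WT and 0.441, 0.548 and 0.416 in KO. The ratio of Chad to Cytl1 overlapped between groups, with 0.717, 0.838 and 1.02 in WT and 0.897, 1.06 and 0.968 in KO. Set against Chad, Acan was at 0.562, 0.405 and 0.491 in WT and at 0.754, 0.620 and 0.564 in KO, with all KO libraries above all WT libraries. Among the 9, only the ratio of Hapln1 to Matn3 had neither Cytl1 nor Chad in it. It was lower in KO, at 5.75, 6.11 and 5.75 in WT and 3.68, 4.67 and 4.61 in KO, and it rests on the few reads of Matn3. So do the ratios of Matn3 to Cytl1 and to Chad, from 4 to 19 reads of Matn3 per library. That of Matn4 to Cytl1 rests on 10 to 22 reads of Matn4. Some groups were barely apart: Acan to Chad was 0.562 in WT replicate 1 and 0.564 in KO replicate 3.

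**Figure D5:**
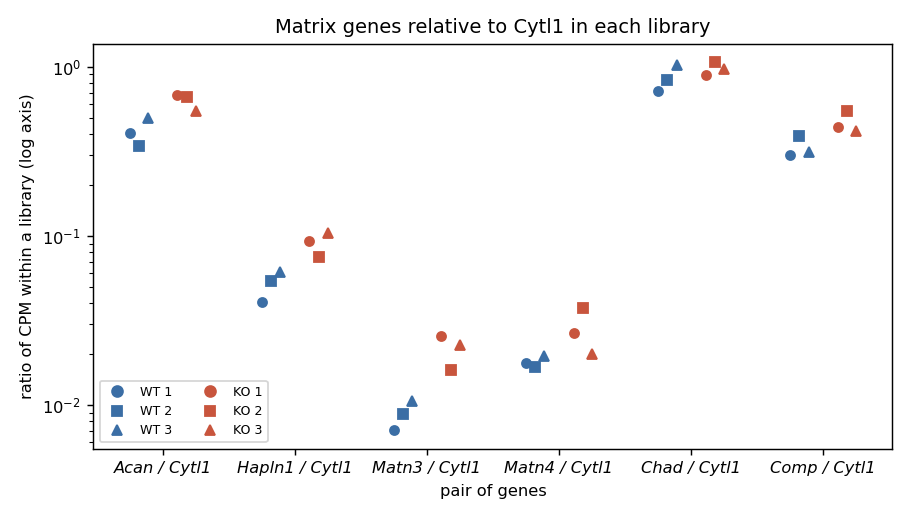
Ratio of the CPM of 6 matrix genes to that of Cytl1 within each library (log axis), for WT (blue) and KO (red) libraries with marker shape giving the replicate number. The KO points lie above the WT points for Acan, Hapln1, Matn3, Matn4 and Comp, and overlap them for Chad.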

How the data were processed

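Punches of bitten ear skin from 3 WT and 3 KO mice were sequenced, and groups were taken from the sample titles. The authors trimmed the reads, aligned them to mm10 with STAR (2.7.3a) and quantified Ensembl transcripts with the Partek E/M algorithm, which can split a read among genes. The deposited values are CPM: the authors divided gene counts by the library total and added 0.0001, which was subtracted here. No use of strand in counting is given in the sources used here, so overlapping genes can share reads.

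The 14306 genes averaging 1 CPM or more were compared (1361 were not tested) on log2(CPM + 0.5) with limma (3.58.1, R 4.3.3; eBayes with trend, two-sided, no covariate). P-values were adjusted by Benjamini-Hochberg over all genes tested. This scale understates changes of low genes. Depth came from the steps of the low values, of which 91.9% to 92.8% under 20 reads lay within 0.1 of a whole read, so reads are estimates. The smallest p that an exact permutation test of 3 against 3 can give is 0.1. Each pair of libraries differed beyond sampling noise (chi-square per degree of freedom at least 8.23). Replicates are separate mice.

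The members and lists were chosen with earlier results of these data known. The genes named are the members, Adipoq, 6 preset cartilage genes (Col2a1, Col9a1, Col11a2, Sox9, Cnmd, Ucma), listed cartilage genes at an unadjusted p below 0.05, and the 5 genes nearest in pattern. Mmp13, Eln, Col10a1, Cilp2, Susd5, Timp3, Clec3a and single genes of the tissue lists were named after their values were seen. Gene positions are those of the table (GRCm38, counted from 1). The fit was tested on simulated data with the same spread setting for every gene, which was not fitted to these libraries. At an adjusted p below 0.05 in limma it recovered 30.3% of simulated log2 changes of 1 and 95.9% of changes of 2. Of the calls, 10.61% and 3.65% were false. Smaller changes of the members could thus be missed. Alternatives were other pseudocounts, filters, scalings, models, a replicate block and leaving out each library.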

Additional observations from a re-analysis of the deposited data

How the results depend on the processing

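Of the alternatives for single genes, 288 kept direction and side of the threshold, 14 changed direction and 2 no longer passed. For counts and sums 114 stayed and 13 moved. Unless stated, the cause was not tested. No member passed the adjusted threshold under any alternative run, and Matn3 and Matn4 have no value with a filter at 5 CPM. Leaving out 1 library moved the log2 fold change between 0.03 and 0.50 for Acan, 0.03 and 0.82 for Hapln1, 0.41 and 1.12 for Matn3, 0.10 and 0.40 for Matn4, -0.47 and 0.11 for Chad, -0.10 and 0.42 for Comp, -0.67 and -0.09 for Cytl1, -0.72 and 0.04 for Sox5, -0.08 and 0.10 for Sox6, -0.31 and 0.49 for Sox9, and -0.69 and 0.04 for Ucma. With limma voom on recovered reads Sox9 was at -0.06, and Adipoq (-7.88) no longer passed (adjusted p = 0.488), leaving 0 lower genes after adjustment. Without WT replicate 2 it did not pass either (-5.94, adjusted p = 0.0683). Without a library, 0 to 1 member was lower at an unadjusted p below 0.05 (Cytl1, without KO replicate 3) and 0 to 1 higher (Matn3, without KO replicate 2), and the summed member level in KO over WT was 0.765 to 1.118. Over all genes the counts at an unadjusted p below 0.05 were 147 to 395 lower and 89 to 313 higher, and after adjustment 0 to 2 lower and 0 to 14 higher. Quantile normalization gave 193 lower and 232 higher genes and median-of-ratios scaling 215 and 210, against 260 and 152.

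The labels do not state whether the replicate numbers pair the samples. The correlation of deviations between same-numbered WT and KO libraries was 0.376, -0.306 and -0.222, a mixed sign that cannot settle it. With the replicate block 414 genes were lower at an unadjusted p below 0.05 (260 without), and 0 members were called. At 4 to 19 reads per library, the level of Matn3 is limited by counting.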
